A study of Mus musculus with 4 samples.

Results

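Enzymes that write and erase marks on histones and on DNA were followed in RAW 264.7 cells, a mouse macrophage line, that stably carried the long noncoding RNA Dnm3os or an empty plasmid. The set holds 40 genes out of the 24530 genes and unnamed transcripts for which 1 transcript was kept. They were chosen by name as chromatin enzyme genes, with earlier results of these data known. All 40 were found in the count tables, and all 40 passed the filter on low counts that left 13172 genes to be tested. The genes fall into 9 classes by what the enzymes do.

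Poly(A) RNA was sequenced in 4 libraries. In 2 libraries the cells stably carried Dnm3os, and in the other 2 they carried the empty plasmid pcDNA 3.1(+). All cells were RAW 264.7, used between passages 3 and 6 and grown at 5.5 mmol/L glucose, and the labels name no further treatment. The labels do not say whether a stable line was a single clone or a pool, nor whether the duplicates were separate cultures, so p-values measure the spread between these libraries, which may be technical. The comparison asks how the transcripts of these enzymes differed between cells that carry Dnm3os and cells that carry the plasmid alone.

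Lysine methyltransferases such as the Polycomb repressive complex PRC2 add methyl groups to histone tails, and demethylases of the KDM families take them off. Acetyltransferases open chromatin by acetylating histones, and histone deacetylases and sirtuins reverse this. DNA methyltransferases place methyl groups on cytosine, and TET dioxygenases oxidise them as the start of their removal. In macrophages these enzymes are known for setting which inflammatory genes can be switched on.

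Summed counts with 1 transcript per gene ran between 29416272 and 39769640 per library, and CPM below are counts scaled to these totals after TMM adjustment. Dnm3os itself had 208 and 260 counts in the Dnm3os libraries, against 0 and 0 counts in the empty vector libraries. With a mean of 7.32 ± 0.365 CPM in the Dnm3os group (SD, n = 2), its level was at least 184-fold higher than the 3 counts that 0 reads over both empty vector libraries allow, a limit that covers counting error only. Of 10 macrophage markers 9 were well detected, with a summed level of 10694 to 11177 CPM with Dnm3os and 9803 to 9956 CPM with the empty vector, while Mertk had at most 1 count in any library; 4 of the 9 were called higher with Dnm3os (Itgam, Fcgr1, Csf1r, Lyz2) and 2 lower (Adgre1, Cd68). Markers of B cells, fibroblasts and epithelial cells each summed to at most 0.0752 CPM in any library. Of the T cell markers the kinase gene Lck held nearly all counts, with Cd3e, Cd3g and Cd2 at 0 in every library. The T cell markers summed to 5.44 and 5.60 CPM in the Dnm3os libraries, against 6.57 and 7.19 CPM in the empty vector libraries. The endothelial markers summed to 1.77 and 1.75 CPM in the Dnm3os libraries, against 1.65 and 2.26 CPM in the empty vector libraries.

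In cells carrying Dnm3os, 4 of the 40 enzyme genes were lower and 0 were higher in the quasi-likelihood test of edgeR (two-sided, adjusted p under 0.05 after Benjamini-Hochberg). The 4 were Dnmt1, the maintenance DNA methyltransferase, Dnmt3a, a de novo DNA methyltransferase, Hdac5, a class IIa histone deacetylase, and Kdm5b, a demethylase of histone H3 lysine 4. Dnmt1 was 7.77% lower with Dnm3os (95% interval of the difference -11.9% to -3.46%) and Dnmt3a 7.07% lower (-11.1% to -2.83%). Hdac5 was 11.1% lower (-16.1% to -5.71%) and Kdm5b 27.8% lower (-39.4% to -14.0%). The share called, 10.0% of the 40, was near that of all genes tested, of which 12.3% were called, 6.51% higher and 5.75% lower. Among the 8933 genes at a mean level of 10 CPM or more, as 37 of the 40 were, 13.6% were called and 6.80% were lower. Of the 0 higher, Suv39h2 was the 1 gene with an unadjusted p under 0.05 by edgeR, and 0 were called by DESeq2 or limma-voom. The count depended on single libraries: 1 gene was called without Dnm3os library 1 (Kdm5b) and 1 without Dnm3os library 2 (Hdac5). Without empty vector library 1, Dnmt1, Hdac5, Kdm5b and Tet3 were called, and without empty vector library 2, Dnmt3a, Hdac5 and Suz12. DESeq2 called 1, Dnmt1, and limma-voom called the same 4 as edgeR. Of all calls in the experiment 49.5% were smaller than 1.2-fold, as were those of Dnmt1, Dnmt3a and Hdac5. In bulk RNA, less transcript per cell and fewer cells with the transcript cannot be told apart.

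Dnmt1 copies methylation onto the new DNA strand after replication. It had 334 and 341 CPM in the Dnm3os libraries, against 358 and 374 CPM in the empty vector libraries. Both Dnm3os libraries were below both empty vector libraries, and the log2 fold change was -0.12 ± 0.032 (SE; adjusted p = 0.0163 by edgeR). Leaving out Dnm3os library 1, Dnm3os library 2 or empty vector library 2 ended this call, at adjusted p = 0.186, 0.0838 and 0.177 by edgeR, within a range of 0.00319 to 0.186 over 14 alternatives.

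Dnmt3a, which methylates DNA that carried no mark before, had 249 and 253 CPM in the Dnm3os libraries, against 272 and 268 CPM in the empty vector libraries. The groups did not overlap, and the log2 fold change was -0.11 ± 0.031 (SE; adjusted p = 0.0262 by edgeR). This was the least stable of the 4 calls: it was made under 9 of 14 alternatives, with adjusted p of 0.0119 to 0.186, where Dnmt1 and Kdm5b were called under 11 each and Hdac5 under 12. DESeq2 ended it (adjusted p = 0.0848), as did leaving out Dnm3os library 1, Dnm3os library 2 or empty vector library 1 (adjusted p = 0.186, 0.105 and 0.164 by edgeR).

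Hdac5 shuttles between nucleus and cytoplasm and represses MEF2 transcription factors. It had 86.3 and 92.0 CPM in the Dnm3os libraries, against 103 and 97.5 CPM in the empty vector libraries. Again both Dnm3os libraries were the lower ones, with a log2 fold change of -0.17 ± 0.040 (SE; adjusted p = 0.00670 by edgeR). The libraries within each group, however, lay farther from each other than the nearest libraries of different groups did. The call was lost by DESeq2 (adjusted p = 0.0550) and without Dnm3os library 1 (adjusted p = 0.173 by edgeR), within a range of 1.43e-04 to 0.173 over the alternatives.

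Kdm5b, which removes the methyl marks of active promoters, had 6.45 and 5.45 CPM in the Dnm3os libraries, against 7.40 and 9.08 CPM in the empty vector libraries. It showed the largest relative difference of the 4 and the lowest level, with 190 and 187 counts with Dnm3os, against 295 and 321 counts with the empty vector. The groups did not overlap, but the empty vector libraries lay farther from each other than the nearest libraries of the 2 groups did. The log2 fold change was -0.47 ± 0.12 (SE; adjusted p = 0.0124 by edgeR), and the call was lost by DESeq2 (adjusted p = 0.136) and without Dnm3os library 2 (0.242 by edgeR) or empty vector library 2 (0.134 by edgeR), within a range of 6.34e-05 to 0.242.

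**Figure D1:**
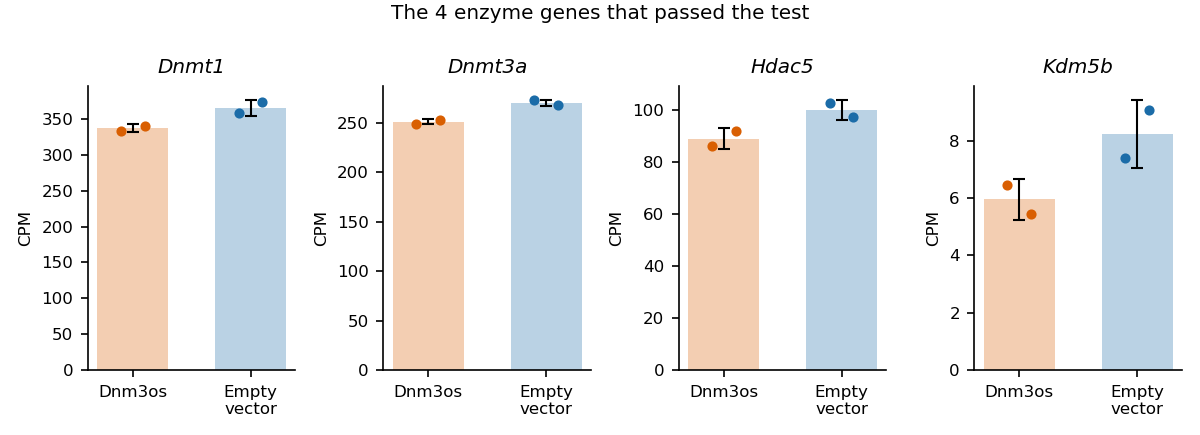
CPM of Dnmt1, Dnmt3a, Hdac5 and Kdm5b in the Dnm3os libraries (orange) and the empty vector libraries (blue); points are libraries, bars are group means and whiskers the SD over 2 libraries. In all 4 panels both Dnm3os points lie below both empty vector points, and the gap is small beside the level except for Kdm5b.

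The promoters of these 4 genes are shown because they were the enzyme genes that differed. Each window runs from 250 bases before to 50 bases after a transcript start, from RefSeq on GRCm38.p6, matched by gene symbol, with 36 of the 40 genes having at least 1 window. The build named for the deposited files is mm9, so these coordinates are those of the RefSeq windows alone. For Dnmt1 and Dnmt3a, which have 3 windows each, the one nearest to the GENCODE start of the counted transcript was taken. Their other isoforms held at least 98.5% (Dnmt1) and 95.2% (Dnmt3a) of its count, from overlapping reads. The counts therefore do not show which start was in use. The windows are chr9:20952930-20953229 on the minus strand for Dnmt1, chr12:3806730-3807029 on the plus strand for Dnmt3a, chr11:102230123-102230422 on the minus strand for Hdac5 and chr1:134559928-134560227 on the plus strand for Kdm5b. Capitals mark matches, on either strand, to any of 7 motifs: the GC box GGGCGG, the CCAAT box CCAAT, the E2F motif TTTNGCGC, the E-box CACGTG, the CRE core TGACGT, the NRF1 core TGCGCA and the ETS motif CCGGAA. In these windows no match overlapped another.
Dnmt1: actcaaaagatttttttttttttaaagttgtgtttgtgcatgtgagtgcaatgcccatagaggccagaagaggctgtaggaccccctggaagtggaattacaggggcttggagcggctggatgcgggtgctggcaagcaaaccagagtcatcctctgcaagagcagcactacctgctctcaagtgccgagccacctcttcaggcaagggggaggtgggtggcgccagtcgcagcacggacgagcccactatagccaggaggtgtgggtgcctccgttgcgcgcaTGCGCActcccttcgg
Dnmt3a: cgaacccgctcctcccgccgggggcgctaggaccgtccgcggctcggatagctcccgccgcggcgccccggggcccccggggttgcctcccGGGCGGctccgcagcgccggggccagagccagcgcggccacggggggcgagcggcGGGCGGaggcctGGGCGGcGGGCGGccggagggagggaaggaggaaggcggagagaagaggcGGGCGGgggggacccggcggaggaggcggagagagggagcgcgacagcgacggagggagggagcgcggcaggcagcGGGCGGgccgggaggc
Hdac5: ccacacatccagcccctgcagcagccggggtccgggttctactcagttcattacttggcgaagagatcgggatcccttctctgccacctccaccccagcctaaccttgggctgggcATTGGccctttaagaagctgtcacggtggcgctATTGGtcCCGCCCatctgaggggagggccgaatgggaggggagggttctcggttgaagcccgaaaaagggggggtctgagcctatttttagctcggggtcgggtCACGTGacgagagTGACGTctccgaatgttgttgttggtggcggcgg
Kdm5b: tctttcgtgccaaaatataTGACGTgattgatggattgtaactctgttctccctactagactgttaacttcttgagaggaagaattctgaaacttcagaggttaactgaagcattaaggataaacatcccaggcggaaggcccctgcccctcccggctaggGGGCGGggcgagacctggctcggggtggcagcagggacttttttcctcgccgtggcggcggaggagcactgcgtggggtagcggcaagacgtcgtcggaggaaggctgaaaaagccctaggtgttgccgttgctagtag

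No motif was found in all 4 windows. The Dnmt3a window held 6 matches to the GC box, the Hdac5 and Kdm5b windows held 1 each and the Dnmt1 window held none. Of all 32851 RefSeq windows, 35.7% held at least 1. The CRE core was in the Hdac5 and Kdm5b windows and in 7.51% of all windows, and the E-box was in the Hdac5 window and in 7.15% of all. The NRF1 core began at base 35 of the Dnmt1 transcript and was in 7.76% of all windows. The CCAAT box appeared in the Hdac5 window, as in 37.4% of all. The E2F and ETS motifs were in none of the 4, against 1.38% and 14.9% of all windows. The windows held 12 (Dnmt1), 46 (Dnmt3a), 18 (Hdac5) and 17 (Kdm5b) CpG dinucleotides, against a median of 7 over all windows and of 26 over the windows of the 36 enzyme genes that have them.

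The other 36 genes did not pass the test, and most had narrow intervals. For 31 of the 36 the 95% interval of the fold change lay inside 1.2-fold in either direction. The exceptions were Ezh1, Suv39h2, Hdac7, Hdac9 and Dnmt3b. The summed level of the 40 genes was 3255 and 3280.0 CPM in the Dnm3os libraries, against 3397 and 3394 CPM in the empty vector libraries, with both Dnm3os libraries the lower. Of the 40 log2 fold changes, 27 were below 0, which is 67.5%, against 49.8% of all genes tested. Of the 40, 21 had both Dnm3os libraries below both empty vector libraries and 2 had both above. Among all genes tested 25.0% were non-overlapping and lower, 26.2% non-overlapping and higher, and 51.2% either. The median log2 fold change was -0.037 for the 40 and 0.00061 for all genes tested, and the median size of change without its sign was 0.049 for the 40 against 0.077 for all. At a mean level of 10 CPM or more, where low counts weigh less, these sizes were 0.045 for the 37 and 0.057 for all. At an unadjusted p under 0.05, edgeR had 9 of the 40 lower and 1 higher: the 4 called, Suz12, Ehmt2, Setd7, Kdm5a and Tet3 below 0, and Suv39h2 above it. DESeq2 and limma-voom called none of these other 6.

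**Figure D2:**
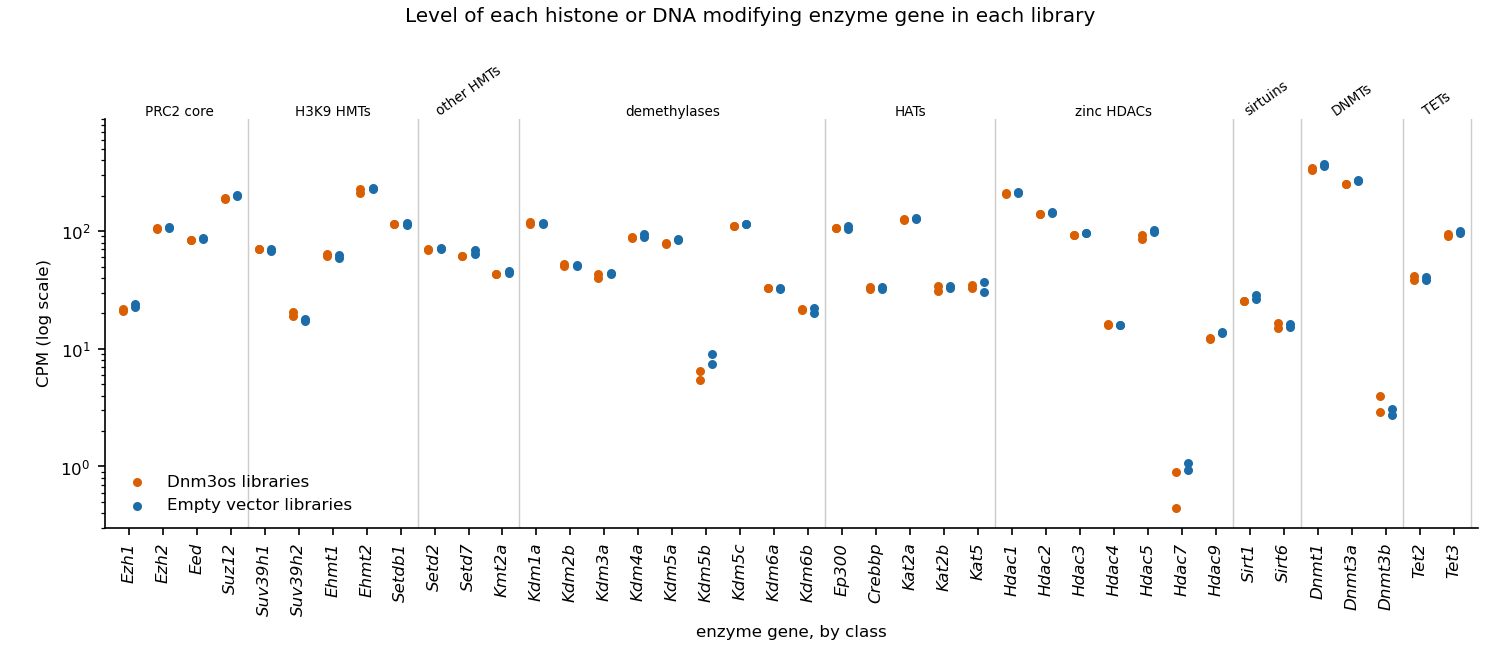
CPM on a log axis for each of the 40 enzyme genes, by class (HMTs, histone methyltransferases; HATs, histone acetyltransferases; HDACs, histone deacetylases; DNMTs, DNA methyltransferases); each point is a library, Dnm3os in orange to the left and empty vector in blue to the right. For most genes the 4 points lie close together; the spread is widest for Hdac7, the lowest gene, and Dnmt1 is the highest.

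**Figure D3:**
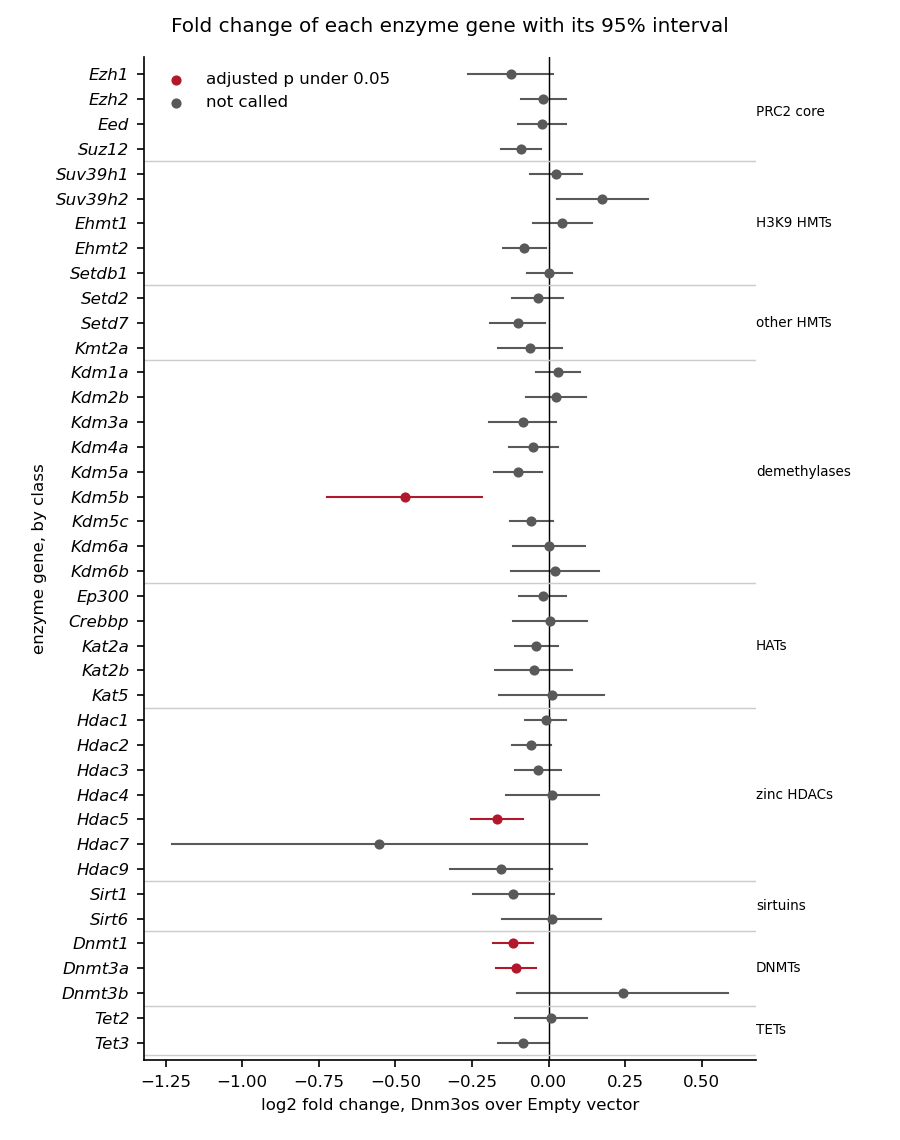
Log2 fold change (Dnm3os over empty vector) of each enzyme gene with its 95% interval, unadjusted for the number of genes; red marks an adjusted p under 0.05 by edgeR. Most intervals lie close to 0, and the red points Kdm5b, Hdac5, Dnmt1 and Dnmt3a are all to the left of it.

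In CPM, which is not scaled for transcript length, the median level of the enzymes was above that of 74.1% of genes tested. Per kb of transcript, which allows levels of different genes to be compared, Hdac1, Hdac2 and Dnmt1 stood highest, with Dnmt1 at 62.8 CPM per kb with Dnm3os and 68.2 with the empty vector. Ehmt2 followed at 54.6 CPM per kb with Dnm3os and 57.7 with the empty vector, and Suz12 had 43.3 CPM per kb with Dnm3os and 46.1 with the empty vector. At the low end, Dnmt3b had 0.794 CPM per kb with Dnm3os and 0.675 with the empty vector, Kdm5b had 0.683 CPM per kb with Dnm3os and 0.946 with the empty vector and Hdac7 had 0.165 CPM per kb with Dnm3os and 0.247 with the empty vector. Lengths were those of GENCODE transcripts and were found for 39 of the 40 genes, all but Tet3.

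The core of PRC2 trimethylates histone H3 lysine 27, with Ezh2 or Ezh1 as the catalytic subunit and Eed and Suz12 as its partners. None of the 4 was called by edgeR, DESeq2 or limma-voom, and Suz12 alone had an unadjusted p under 0.05 by edgeR. Ezh2 had 103 and 107 CPM in the Dnm3os libraries, against 108 and 105 CPM in the empty vector libraries, and these values overlapped (log2 fold change -0.017 ± 0.036, SE). Ezh1 had 21.9 and 20.8 CPM in the Dnm3os libraries, against 24.1 and 22.5 CPM in the empty vector libraries, with both Dnm3os libraries the lower (log2 fold change -0.12 ± 0.067, SE; adjusted p = 0.284 by edgeR).

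Per kb of transcript, Ezh2 was far above Ezh1 in every library: the ratio of their CPM per kb was 7.09 and 7.75 in the Dnm3os libraries, against 6.74 and 7.06 in the empty vector libraries. Eed, which reads the mark that PRC2 makes, averaged 84.7 ± 0.0549 CPM with Dnm3os and 86.0 ± 1.08 CPM with the empty vector (SD, n = 2 each). Suz12, the structural subunit, had 189 and 189 CPM in the Dnm3os libraries, against 204 and 199 CPM in the empty vector libraries, which did not overlap (log2 fold change -0.090 ± 0.032, SE; adjusted p = 0.0663 by edgeR). It passed the threshold when low counts were not filtered (adjusted p = 0.0406 by edgeR) and without empty vector library 2 (0.0400 by edgeR), within a range of 0.0400 to 0.361 over its alternatives.

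Of 8 accessory subunits of PRC2, which steer the complex to its sites, 2 fell and 0 rose. The share called was 25%, against 12.3% of all genes tested. Epop, which links PRC2 to elongin, had 6.35 and 6.59 CPM in the Dnm3os libraries, against 12.7 and 11.3 CPM in the empty vector libraries, a 1.85-fold lower mean (adjusted p = 6.78e-07 by edgeR). Jarid2, which recruits and stimulates PRC2, had 46.1 and 46.2 CPM in the Dnm3os libraries, against 58.5 and 55.2 CPM in the empty vector libraries (log2 fold change -0.30 ± 0.048, SE; adjusted p = 9.03e-05 by edgeR). For both genes the groups lay well apart, and both were called under every alternative run. The median of the 8 was -0.033 in log2 fold change. For the 0 higher, 1 gene had an unadjusted p under 0.05 by edgeR, and 0 were called by DESeq2 or limma-voom.

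Of 18 subunits of PRC1, the Polycomb complex that ubiquitinates histone H2A, 2 were higher, 1 was lower and 15 were not called. The share called was 16.7%, against 12.3% of all genes tested, and the median log2 fold change of the list was 0.0025. Phc2, a Polyhomeotic subunit that lets PRC1 cluster, had 83.3 and 85.9 CPM in the Dnm3os libraries, against 50.2 and 51.1 CPM in the empty vector libraries, 1.67-fold higher with Dnm3os (adjusted p = 9.43e-12 by edgeR), and it was called under every alternative run. Bmi1, a core subunit that stimulates the ubiquitin ligase, had 92.9 and 91.1 CPM in the Dnm3os libraries, against 83.4 and 83.7 CPM in the empty vector libraries (log2 fold change 0.14 ± 0.037, SE; adjusted p = 0.0143 by edgeR). Cbx6, a chromobox subunit, had 53.4 and 54.9 CPM in the Dnm3os libraries, against 62.5 and 58.8 CPM in the empty vector libraries (log2 fold change -0.16 ± 0.046, SE; adjusted p = 0.0194 by edgeR). The calls of Bmi1 and Cbx6 were both lost by DESeq2 (adjusted p = 0.156 and 0.164) and by edgeR without Dnm3os library 1 (0.162 and 0.157) or 2 (0.0686 and 0.0967). That of Cbx6 was also lost without empty vector library 1 (0.216 by edgeR) and with isoforms summed (0.0567 by edgeR).

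The 5 methyltransferases of histone H3 lysine 9, a mark of silent chromatin, gave no calls by edgeR, DESeq2 or limma-voom; Suv39h2 and Ehmt2 had an unadjusted p under 0.05 by edgeR, on opposite sides of 0. Suv39h2 had 20.6 and 19.0 CPM in the Dnm3os libraries, against 17.1 and 17.9 CPM in the empty vector libraries and lay farthest from 0 in the class (log2 fold change 0.18 ± 0.071, SE; adjusted p = 0.129 by edgeR), and both Dnm3os libraries were above both empty vector libraries. Its paralog Suv39h1, the better expressed of the 2, averaged 70.5 ± 0.459 CPM with Dnm3os and 69.3 ± 1.62 CPM with the empty vector (SD, n = 2 each). Ehmt2, also known as G9a, had 212 and 227 CPM in the Dnm3os libraries, against 234 and 230.0 CPM in the empty vector libraries (log2 fold change -0.079 ± 0.034, SE; adjusted p = 0.159 by edgeR). Its partner Ehmt1 averaged 62.7 ± 2.52 CPM with Dnm3os and 60.7 ± 2.69 CPM with the empty vector (SD, n = 2 each). Setdb1, which silences retroelements with the corepressor Trim28, averaged 115 ± 1.10 CPM with Dnm3os and 115 ± 4.01 CPM with the empty vector (SD, n = 2 each), and its interval allowed a difference of -4.80% to 5.40%.

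Among the other methyltransferases, Setd2 places the lysine 36 mark along transcribed genes, Kmt2a methylates lysine 4 and Setd7 adds a single methyl group to lysine 4 and to non-histone proteins. Setd7 had 62.0 and 62.0 CPM in the Dnm3os libraries, against 68.6 and 64.4 CPM in the empty vector libraries, a non-overlapping difference that was not called by any of the 3 tools (log2 fold change -0.10 ± 0.044, SE; adjusted p = 0.155 by edgeR). Setd2 averaged 69.9 ± 0.901 CPM with Dnm3os and 71.6 ± 0.778 CPM with the empty vector, and Kmt2a 43.0 ± 0.108 CPM with Dnm3os and 44.9 ± 1.64 CPM with the empty vector (SD, n = 2 each).

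A wider list of 20 tested methyltransferases gave 1 call, a share of 5%, against 12.3% of all genes tested. Dot1l, the lysine 79 methyltransferase, fell, with 168 and 173 CPM in the Dnm3os libraries, against 185 and 187 CPM in the empty vector libraries (adjusted p = 0.0106 by edgeR). Its call was lost by DESeq2 (adjusted p = 0.0659) and without Dnm3os library 1 (0.135 by edgeR). Of the 8 arginine methyltransferases, which modify histones and many RNA-binding proteins, 0 were called by edgeR, DESeq2 and limma-voom, and 1 had an unadjusted p under 0.05 by edgeR, below 0.

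Of the 9 histone demethylases, Kdm5b fell and 8 were not called. The share called, 11.1%, was near the 12.3% of all genes tested. The lysine 4 demethylase Kdm5a had 79.7 and 78.4 CPM in the Dnm3os libraries, against 84.4 and 85.0 CPM in the empty vector libraries, and Kdm5c had 109.6 and 111 CPM in the Dnm3os libraries, against 115 and 115 CPM in the empty vector libraries. In both, the Dnm3os libraries were the lower without a call (log2 fold change -0.10 ± 0.038 and -0.057 ± 0.034, SE; adjusted p = 0.0993 and 0.343 by edgeR). Per kb, Kdm5c outweighed Kdm5b in every library: the ratio of Kdm5c to Kdm5b in CPM per kb was 22.9 and 27.5 in the Dnm3os libraries, against 21.0 and 17.0 in the empty vector libraries.

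The lysine 27 demethylases Kdm6a and Kdm6b, which oppose PRC2, showed no called difference. Kdm6a averaged 32.7 ± 0.0915 CPM with Dnm3os and 32.7 ± 0.542 CPM with the empty vector, with an interval of -7.81% to 8.46%. Kdm6b, known for its induction in activated macrophages, averaged 21.6 ± 0.115 CPM with Dnm3os and 21.3 ± 1.56 CPM with the empty vector, with an interval of -8.17% to 12.0% (SD, n = 2 each).

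Kdm1a, the flavin-dependent lysine 4 demethylase LSD1, averaged 118 ± 3.21 CPM with Dnm3os and 116 ± 2.10 CPM with the empty vector (SD, n = 2 each). Kdm2b, which also brings a PRC1 variant to CpG islands, averaged 51.6 ± 1.72 CPM with Dnm3os and 50.8 ± 0.901 CPM with the empty vector. The lysine 9 demethylases Kdm3a and Kdm4a had means of 41.4 ± 2.06 CPM with Dnm3os and 43.9 ± 0.403 CPM with the empty vector (Kdm3a) and 88.0 ± 1.68 CPM with Dnm3os and 91.2 ± 3.47 CPM with the empty vector (Kdm4a). Of these 4 only Kdm3a had non-overlapping groups, and its log2 fold change was -0.085 ± 0.053 (SE), with -0.034 when Dnm3os library 2 was left out and -0.14 when Dnm3os library 1 was. Of 13 further demethylase genes, 1 fell, a share of 7.69%, against 12.3% of all genes tested. It was Jmjd1c, related to Kdm3a, with 197 and 189 CPM in the Dnm3os libraries, against 207 and 213 CPM in the empty vector libraries (adjusted p = 0.0152 by edgeR). Its call was lost by DESeq2 (adjusted p = 0.0751), without Dnm3os library 2 (0.235 by edgeR) and without empty vector library 2 (0.0755 by edgeR).

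The 5 acetyltransferases had log2 fold changes between -0.049 (Kat2b) and 0.011 (Kat5), and none was called or had an unadjusted p under 0.05 by edgeR, nor was any called by DESeq2 or limma-voom. Ep300 and Crebbp, the coactivators p300 and CBP, averaged 106 ± 0.351 CPM with Dnm3os and 107 ± 4.93 CPM with the empty vector (Ep300) and 32.8 ± 1.08 CPM with Dnm3os and 32.7 ± 1.11 CPM with the empty vector (Crebbp; SD, n = 2 each). Kat2a, the SAGA catalytic subunit, had 123 and 126 CPM in the Dnm3os libraries, against 130.1 and 126 CPM in the empty vector libraries, and its paralog Kat2b averaged 32.4 ± 2.22 CPM with Dnm3os and 33.4 ± 0.922 CPM with the empty vector. Kat5, the catalytic subunit of the TIP60 complex, had 32.7 and 34.9 CPM in the Dnm3os libraries, against 36.7 and 30.4 CPM in the empty vector libraries, so that the 2 empty vector libraries enclosed both Dnm3os libraries. Of 11 further acetyltransferase genes, 0 were called by the 3 tools and 1 had an unadjusted p under 0.05 by edgeR, below 0. Without empty vector library 1, 1 of the 11 was called lower by edgeR.

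Of the 7 zinc-dependent deacetylases, Hdac5 fell and 6 were not called. The share called, 14.3%, was near the 12.3% of all genes tested. Hdac1, Hdac2 and Hdac3, the class I enzymes of the main corepressor complexes, had the highest levels per length of the class: 103 CPM per kb with Dnm3os and 104 with the empty vector for Hdac1, 69.4 CPM per kb with Dnm3os and 72.2 with the empty vector for Hdac2 and 46.0 CPM per kb with Dnm3os and 47.1 with the empty vector for Hdac3. Hdac1 averaged 210.0 ± 3.68 CPM with Dnm3os and 211 ± 2.68 CPM with the empty vector, and Hdac2 139 ± 0.505 CPM with Dnm3os and 145 ± 1.73 CPM with the empty vector (SD, n = 2 each). Hdac3 had 93.5 and 93.5 CPM in the Dnm3os libraries, against 95.9 and 95.6 CPM in the empty vector libraries.

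Among the class IIa enzymes other than Hdac5, Hdac4 averaged 16.1 ± 0.179 CPM with Dnm3os and 15.9 ± 0.00987 CPM with the empty vector (SD, n = 2 each), with both Dnm3os libraries slightly above both empty vector libraries and an interval of -9.25% to 12.1%. Hdac9 had 12.4 and 12.1 CPM in the Dnm3os libraries, against 13.5 and 13.8 CPM in the empty vector libraries, with both Dnm3os libraries the lower (log2 fold change -0.16 ± 0.081, SE; adjusted p = 0.257 by edgeR). Hdac7 was barely expressed, with 13 and 31 counts with Dnm3os, against 43 and 33 counts with the empty vector, and its interval of -1.23 to 0.13 in log2 fold change leaves its direction undetermined. Of the 4 class IIa genes only Hdac5 passed the test.

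Of 8 further deacetylases tested, 0 were called by the 3 tools and 2 had an unadjusted p under 0.05 by edgeR, both above 0. With the isoforms of each gene summed, 2 of the 8 were called higher by edgeR.

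The corepressor subunits through which deacetylases act gave 3 falls and 0 rises among 22 genes. The share called, 13.6%, was near the 12.3% of all genes tested. Chd3, a NuRD helicase, had 101 and 104 CPM in the Dnm3os libraries, against 114 and 117 CPM in the empty vector libraries (adjusted p = 0.00145 by edgeR). Tbl1xr1, which helps exchange corepressors for coactivators, had 62.3 and 61.5 CPM in the Dnm3os libraries, against 67.9 and 70.7 CPM in the empty vector libraries (adjusted p = 0.0113 by edgeR). Without Dnm3os library 1 the count of the list was 0: the calls of Chd3 and Tbl1xr1 were lost (adjusted p = 0.0599 and 0.0634 by edgeR). That of Tbl1xr1 was also lost by DESeq2 (adjusted p = 0.116), without Dnm3os library 2 (0.126 by edgeR) and without empty vector library 2 (0.100 by edgeR). For the 0 higher, 1 gene had an unadjusted p under 0.05 by edgeR, and 0 were called by DESeq2 or limma-voom.

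The sirtuins Sirt1 and Sirt6, NAD-dependent deacetylases, averaged 25.4 ± 0.0532 CPM with Dnm3os and 27.5 ± 1.62 CPM with the empty vector (Sirt1) and 15.8 ± 1.14 CPM with Dnm3os and 15.7 ± 0.553 CPM with the empty vector (Sirt6; SD, n = 2 each), and neither was called by the 3 tools or had an unadjusted p under 0.05 by edgeR.

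Of the 3 DNA methyltransferases 2 fell, Dnmt1 and Dnmt3a, where 5.75% of all genes tested and 10.0% of the 40 enzymes were called lower. That count was 0 without either Dnm3os library and 1 without either empty vector library or with DESeq2. Their summed level was 586 and 598 CPM in the Dnm3os libraries, against 633 and 644 CPM in the empty vector libraries. Dnmt3b, the other de novo enzyme, had 86 and 135 counts with Dnm3os, against 123 and 97 counts with the empty vector, and these few counts overlap once scaled (2.92 and 3.94 CPM in the Dnm3os libraries, against 3.08 and 2.74 CPM in the empty vector libraries). Per kb, Dnmt1 exceeded Dnmt3a by a ratio of 2.42 and 2.43 in the Dnm3os libraries, against 2.37 and 2.52 in the empty vector libraries, with both Dnm3os libraries between the empty vector libraries.

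Among genes that partner or read DNA methylation, 1 of 12 tested was called, a share of 8.33%, against 12.3% of all genes tested. Dnmt3l, a catalytically inactive stimulator of Dnmt3a known from the germ line, was higher at few counts, with 56 and 64 counts with Dnm3os, against 43 and 22 counts with the empty vector (log2 fold change 1.13 ± 0.26, SE; adjusted p = 0.00484 by edgeR). That call was lost by DESeq2 (adjusted p = 0.0859), with isoforms summed (0.164 by edgeR), and without Dnm3os library 1, Dnm3os library 2 or empty vector library 2 (0.0606, 0.0797 and 0.0676 by edgeR).

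Dnmt1 is most abundant in dividing cells. Of 14 proliferation markers, 3 were also lower with Dnm3os and 0 were higher. The share called was 21.4%, against 12.3% of all genes tested. Top2a, the replication and mitosis topoisomerase, had 530.1 and 515 CPM in the Dnm3os libraries, against 577 and 582 CPM in the empty vector libraries (adjusted p = 6.90e-04 by edgeR). Mki67 and the replication clamp Pcna were lower by 7.33% and 6.59% (adjusted p = 0.0151 and 0.0237 by edgeR), and both calls were lost without Dnm3os library 1 (0.0667 and 0.105 by edgeR), without Dnm3os library 2 (0.174 and 0.193) and without empty vector library 1 (0.127 and 0.0935). Pcna was also not called without empty vector library 2 (0.0634 by edgeR) or with isoforms summed (0.0618 by edgeR). Above 0, 2 of the 14 had an unadjusted p under 0.05 by edgeR, and 0 were called by DESeq2 or limma-voom. Without empty vector library 1 the markers gave 1 call in each direction. The summed level of the 14 was 3986 and 4001 CPM in the Dnm3os libraries, against 4161 and 4097 CPM in the empty vector libraries. Their part in the result for Dnmt1 was not tested.

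Of the TET dioxygenases, Tet2, often mutated in human myeloid malignancies, averaged 39.8 ± 2.36 CPM with Dnm3os and 39.5 ± 1.13 CPM with the empty vector (SD, n = 2 each), with an interval of -7.27% to 8.99%. Tet3 had 90.1 and 95.2 CPM in the Dnm3os libraries, against 96.1 and 101 CPM in the empty vector libraries, non-overlapping but not called (log2 fold change -0.084 ± 0.039, SE; adjusted p = 0.193 by edgeR); it was called when empty vector library 1 was left out (adjusted p = 0.0464 by edgeR), within a range of 0.0464 to 0.681 over its alternatives. Tet1, which was on the list of partner genes, did not pass the filter on low counts, nor did Hdac11 and Mecom on their lists.

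**Figure D4:**
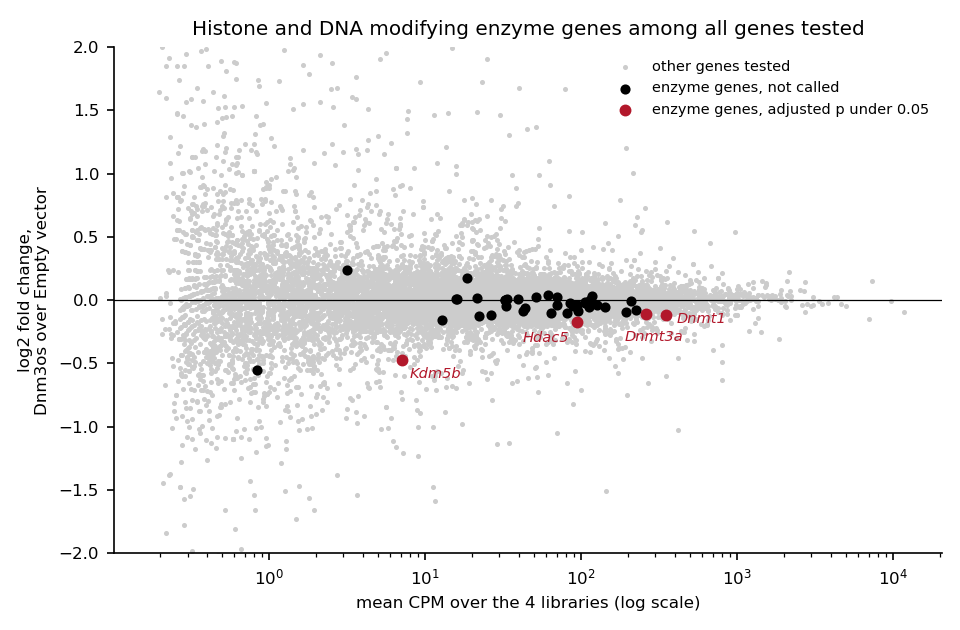
Log2 fold change (Dnm3os over empty vector) against the mean CPM of the 4 libraries on a log axis; grey points are the other genes tested, black and red points the enzyme genes, and 76 genes beyond 2 on the log2 scale are not shown. Most enzyme genes lie close to 0, and all 4 red points lie below it.

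Readers, remodellers and histone chaperones were described from lists chosen beside the enzymes. Of 12 readers of acetylated or methylated lysine, 0 were called by the 3 tools and 0 had an unadjusted p under 0.05 by edgeR; 1 was called lower by edgeR without Dnm3os library 1. Of 13 subunits of the SWI/SNF remodeller 1 fell, the core subunit Smarcc1, with 210.4 and 215 CPM in the Dnm3os libraries, against 229.9 and 234 CPM in the empty vector libraries (adjusted p = 0.00969 by edgeR), a call lost without Dnm3os library 1 (0.121 by edgeR) and without Dnm3os library 2 (0.0536 by edgeR). The share called was 7.69%, against 12.3% of all genes tested. Of the 13, 12 had a log2 fold change below 0, with a median of -0.059. Over all genes tested, 49.8% were below 0 and the median was 0.00061. Of 10 subunits of the COMPASS lysine 4 methyltransferase complexes, 0 were called by the 3 tools and 1 had an unadjusted p under 0.05 by edgeR, above 0. With isoforms summed, 1 of the 10 was called higher by edgeR.

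Of 13 histone chaperones and variants, 3 were higher and 0 lower, with 0 lower also at an unadjusted p under 0.05 by edgeR and by DESeq2 and limma-voom. The share called was 23.1%, against 12.3% of all genes tested. H3f3b, which encodes the replacement histone H3.3, had 578 and 586 CPM in the Dnm3os libraries, against 526 and 514 CPM in the empty vector libraries (adjusted p = 2.75e-04 by edgeR). Macroh2a1, a variant of H2A found in silent chromatin, had 170.4 and 165 CPM in the Dnm3os libraries, against 147 and 151 CPM in the empty vector libraries (adjusted p = 7.98e-04 by edgeR). Both were called under every alternative run. The chaperone Asf1a had 28.7 and 29.5 CPM in the Dnm3os libraries, against 25.0 and 26.1 CPM in the empty vector libraries at adjusted p = 0.0466 by edgeR, a call lost under 9 of its 14 alternatives (adjusted p of 0.0390 to 0.339 over all 14), among them each library left out.

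**Figure D5:**
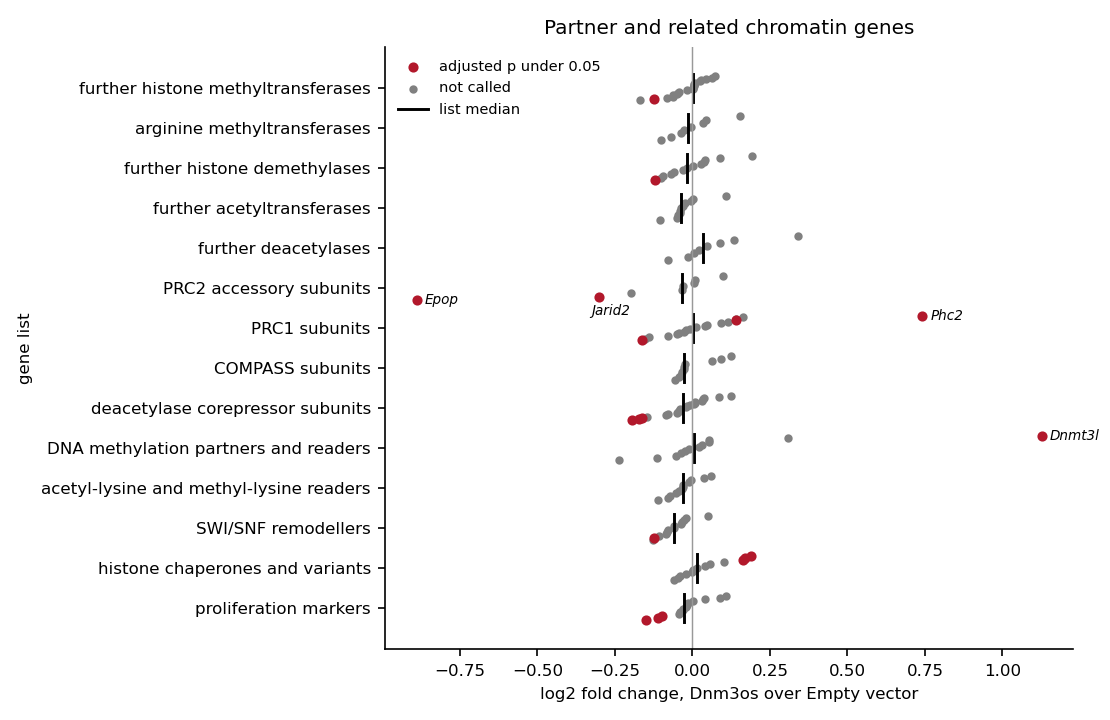
Log2 fold change (Dnm3os over empty vector) of the genes in each related list; each point is a gene, red where the adjusted p was under 0.05 by edgeR, and the black bar is the list median. The list medians lie between -0.059 and 0.034, and Epop, Jarid2, Phc2 and Dnmt3l lie farthest from 0 among the called genes.

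Over the 168 tested genes of the 13 related chromatin lists, 6 were higher and 9 lower, with a median log2 fold change of -0.023, against 0.00061 for all genes tested. Of the 168, 8.93% were called, against 12.3% of all genes tested.

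Isoforms of an enzyme gene mostly gave the same ratio. Of the 40, 25 had more than 1 transcript, 93 transcripts in all, and in 22 of the 25 the log2 ratios of the isoforms lay within 0.05 of each other. The counts of isoforms overlap, so these ratios are not independent. The exceptions were Hdac7, Kat5 and Hdac9, with ranges of 0.099, 0.11 and 0.15 on the log2 scale. For Hdac9 the second transcript had 263 and 277 counts with Dnm3os, against 422 and 367 with the empty vector, a log2 ratio of mean CPM of -0.30 compared with -0.16 for the transcript used, with no test.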

How the data were processed

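Per the labels' protocols, poly(A) libraries were prepared with Illumina's TruSeq kit. TopHat, Bowtie2, DESeq2 and the build mm9 appear, without versions or roles, per the submitters' processing notes. Counter, annotation and strandedness are not given in the sources used, so reads of overlapping or antisense genes cannot be told apart. The deposited raw column holds whole-number counts for 35786 transcripts, per the file headers. The deposited normalized column is a signal, the raw count multiplied by a library constant (1.17 and 1.01 for Dnm3os, 0.865 and 0.978 for the empty vector), used here only to rescale in 1 alternative.

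RefSeq gave names to 35494 transcripts and GENCODE to 183; 109 unnamed ones, with 0.246 to 0.276% of the counts, were kept under their own identifiers. Each gene was represented by its most counted transcript, since isoforms hold overlapping counts, and 45S ribosomal RNA was removed. Counts passing edgeR's filterByExpr were scaled by TMM and tested with edgeR 4.0.16 (glmQLFit, robust, and glmQLFTest) in R 4.3.3, two-sided, with Benjamini-Hochberg adjustment over 13172 genes. The SE is the log2 fold change, without its sign, divided by the square root of F, and 95% intervals are unadjusted. The 14 alternatives used DESeq2 1.42.0, limma-voom (limma 3.58.1), 4 other scalings, no filter, a filter of 1 CPM in 2 libraries, summed isoforms, a replicate block and each library left out; with a library left out, the lone sample is assumed to vary like the other group. The procedure was also run on counts simulated with the spread of these libraries, which cannot show whether the duplicates were technical.

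Named are Dnm3os, all 40 enzymes and up to 3 called genes per related list with the smallest adjusted p, except 1 item that is not reported here. The enzymes and lists were chosen with earlier results of these data known. Their shares called, set beside those of all genes, are therefore descriptions only.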

Additional observations from a re-analysis of the deposited data

How the results depend on the processing

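Values of Dnm3os, the enzymes and the genes named from the related lists were recomputed under 14 alternatives. So were the counts called over all genes, the enzymes and the related lists. For cell type markers and cofactor genes, only counts by DESeq2 and limma-voom were taken. Of 825 recomputed values of 59 named genes, 741 kept their direction and their side of the threshold, 57 lost a call in the same direction, 3 gained one and 24, over 13 enzyme genes, changed direction. None of those 24 was called in either fit, and the largest was 0.12 in size. The count of enzymes called, 4 and all lower, became 1 with DESeq2, 5 with no filter and 1 to 4 with a library left out, and 0 enzymes were called higher under any of the 14. For all genes, DESeq2 called 766 (404 higher, 362 lower) and leaving out a library gave 861 to 1459 (465 to 808 higher, 396 to 786 lower).

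Same-numbered libraries did not deviate together (r = -0.063 over genes), so the numbers were not taken to pair libraries. With the replicate block, 3 enzymes and 1650 genes were called (868 higher, 782 lower), and Dnmt3a, Asf1a and Pcna were not (adjusted p = 0.0570, 0.0663 and 0.0579 by edgeR). It changed no other call of a named gene.

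The direction changed for Setdb1 with upper-quartile factors (-0.0016), no filter (-0.0022) and the 1 CPM filter (-0.00047), for Crebbp with no filter (-0.00047) and for Kdm6a with limma-voom (0.00063). With a library left out, log2 fold changes ranged over 0 in Ezh2 (-0.043 to 0.0062), Setdb1 (-0.038 to 0.038), Kdm2b (-0.012 to 0.054), Kdm6a (-0.022 to 0.016), Kdm6b (-0.059 to 0.10), Ep300 (-0.071 to 0.028), Crebbp (-0.031 to 0.038), Kat2b (-0.12 to 0.022), Kat5 (-0.12 to 0.15), Hdac1 (-0.030 to 0.0078), Hdac4 (-0.00092 to 0.024), Sirt6 (-0.068 to 0.078) and Tet2 (-0.055 to 0.069). The cause was not tested. With 2 libraries a group, each left-out library leaves a group of 1.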

Other observations

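Genes that supply the cofactors of these enzymes were looked at after the data had been seen, in 4 lists of 42 genes in all. Their counts are therefore descriptions only, and their calls were not followed with other scalings or with a library left out. Over all genes tested 6.51% were called higher and 5.75% lower, and 49.8% had a log2 fold change below 0. Of 12 genes of S-adenosylmethionine and one-carbon metabolism, 1 was called and 11 had a log2 fold change above 0, with a median of 0.058. The called gene was Shmt2, the mitochondrial serine hydroxymethyltransferase, with 484 and 507 CPM in the Dnm3os libraries, against 427 and 434 CPM in the empty vector libraries (adjusted p = 5.33e-05 by edgeR). Of 7 genes of acetyl-CoA supply, 3 were called, all of them pyruvate dehydrogenase subunits and all higher. Pdha1 had 74.3 and 71.6 CPM in the Dnm3os libraries, against 65.7 and 67.1 CPM in the empty vector libraries (adjusted p = 0.0316 by edgeR), and Dlat and Pdhb had log2 fold changes of 0.12 ± 0.034 and 0.10 ± 0.034 (SE; adjusted p = 0.0209 and 0.0484 by edgeR). DESeq2 called 0 of these 7, and limma-voom called 2.

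Of 12 genes around 2-oxoglutarate, the cosubstrate of the KDM and TET dioxygenases, 3 were higher and 1 lower. Got1, the cytosolic aspartate transaminase, had 94.5 and 93.1 CPM in the Dnm3os libraries, against 78.0 and 83.7 CPM in the empty vector libraries (adjusted p = 6.49e-04 by edgeR), and the fumarase Fh1 and the succinate dehydrogenase subunit Sdha were higher by 9.74% and 7.02% (adjusted p = 0.0112 and 0.0426 by edgeR). Idh1, the cytosolic isocitrate dehydrogenase, fell, with 123 and 122 CPM in the Dnm3os libraries, against 131 and 138 CPM in the empty vector libraries (adjusted p = 0.00963 by edgeR). DESeq2 called 1 of the 12, higher, and limma-voom 3 higher and 1 lower. Of 9 tested genes of NAD and flavin supply, 0 were called by edgeR, DESeq2 and limma-voom, with 1 higher and 1 lower at an unadjusted p under 0.05 by edgeR.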
